A study of Mus musculus with 8 samples.

Results

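The SEL1L-HRD1 complex is the ER-associated degradation (ERAD) machinery that picks misfolded proteins out of the endoplasmic reticulum (ER) lumen and passes them to the cytosol for destruction by the proteasome. The genes described here are its 10 listed members, which were found by symbol among the 16538 genes of the deposited table, and all 10 were present. They are Sel1l, the adaptor, Syvn1, which encodes the E3 ubiquitin ligase HRD1, the lectins Os9 and Erlec1, the mannosidase-like factors Edem1, Edem2 and Edem3, the scaffold proteins Herpud1 and Herpud2, and the cofactor Fam8a1. RNA was sequenced from CD44- CD25+ DN3 thymocytes, the double-negative stage at which β-selection takes place, of 6-week-old C57BL/6 mice. The 4 control libraries came from Sel1l-f/f mice, and the 4 Sel1l CKO libraries came from Sel1l-f/f mice that also carry hCD2cre, so the floxed Sel1l allele is shared by both genotypes and only the Cre transgene differs. This CD2-driven iCre acts from the early thymic progenitor stage onward in T-lineage cells. The study's methods treat replicates as independent biological ones, and no source used here ties each library to an animal, a litter or a pool.

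In this pathway, EDEM proteins trim mannose from the N-glycans of misfolded glycoproteins, the lectins OS-9 and XTP3-B (the product of Erlec1) read the trimmed glycan and bind SEL1L, and SEL1L holds HRD1 in place and hands over the substrate for ubiquitination at the membrane. HERP, the product of Herpud1, binds HRD1 and helps to assemble the complex, and FAM8A1 is a further partner of HRD1. Several of the genes are known targets of the unfolded protein response, in which XBP1 and ATF6 bind ER stress response elements in promoters. At β-selection, DN3 thymocytes that have rearranged a T cell receptor β chain pair it with pre-Tα, and those that pass proliferate and synthesise much protein. The comparison asks how the transcripts of the complex differ in DN3 thymocytes when Sel1l is deleted.

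Promoter sequences are shown for the 3 members that were higher in Sel1l CKO (Herpud1, Syvn1 and Edem2), for Sel1l, and for Herpud2 as the paralog of Herpud1. Each line is the gene's strand from 100 bases before the RefSeq start to the last base before it (GRCm38.p6), in lower case, and capitals mark an ER stress response element.
Herpud1, chr8:94386329-94386428, plus strand: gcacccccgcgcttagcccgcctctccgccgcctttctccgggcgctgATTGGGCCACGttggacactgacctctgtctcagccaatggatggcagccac
Syvn1, chr19:6046476-6046575, plus strand: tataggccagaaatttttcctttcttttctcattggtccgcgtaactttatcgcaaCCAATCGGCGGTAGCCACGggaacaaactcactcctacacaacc
Edem2, chr2:155729476-155729575, minus strand: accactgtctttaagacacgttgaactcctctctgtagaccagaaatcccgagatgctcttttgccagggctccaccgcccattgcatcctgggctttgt
Sel1l, chr12:91849158-91849257, minus strand: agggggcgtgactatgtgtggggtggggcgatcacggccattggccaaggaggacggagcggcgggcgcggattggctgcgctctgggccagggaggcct
Herpud2, chr9:25151782-25151881, minus strand: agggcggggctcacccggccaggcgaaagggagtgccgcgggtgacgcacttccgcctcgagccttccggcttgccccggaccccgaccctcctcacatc

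These letters were searched on both strands in the window from 250 bases before to 50 bases after each RefSeq start (positions run from -1 to 1, with no 0), for the 9 members with a window (Erlec1 had none) and for 32851 promoter windows in all. The ER stress response element, CCAAT and CCACG with 9 bases between them, was in the Syvn1 window from position -44 to -26, and in 0.119% of all windows. The ER stress response element II, ATTGG and CCACG with 1 base between them, was in the Herpud1 window from -52 to -42, and in 0.0365% of all windows. Neither was in another member's window, and TGACGTGG, the XBP1 and ATF6 element (0.676% of all windows), was in none of the 9. The letters CCACG, which both longer elements contain, was in every member window except that of Herpud2, and in 32.8% of all windows. In Edem2 it lay after the start, from 41 to 45. TGGGAA, the core of the site bound by RBP-J, the DNA-binding partner of Notch, was in the windows of Sel1l (from -1 to 5) and Syvn1 (from 21 to 26) and in 25.6% of all windows. A match of letters shows neither binding nor a use of the site in these cells.

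Levels are given as the RPKM of the table, reads counted per unit of gene length and of library depth. Genotypes were compared on log2(RPKM + 0.1) with limma over the 6512 genes whose mean RPKM reached 1, and every adjusted p is by the Benjamini-Hochberg method over these genes. Of the 10 members, 3 rose (Herpud1, Syvn1 and Edem2), 1 fell (Sel1l), 3 did not pass the test (Edem1, Os9 and Fam8a1), and 3 lay below the filter (Erlec1, Edem3 and Herpud2). Among all tested genes, 4.27% rose and 1.01% fell at the same threshold. The 7 tested members each had a mean of at least 1 RPKM in both genotypes, and their median log2 fold change was 0.22, beside 0.01 over all tested genes. In the plot of RPKM by library, the same 3 members had all Sel1l CKO libraries above all control libraries, as 9.15% of tested genes did, and Sel1l alone had all of them below, as 5.59% of tested genes did. The other 6 members overlapped between genotypes.

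**Figure D1:**
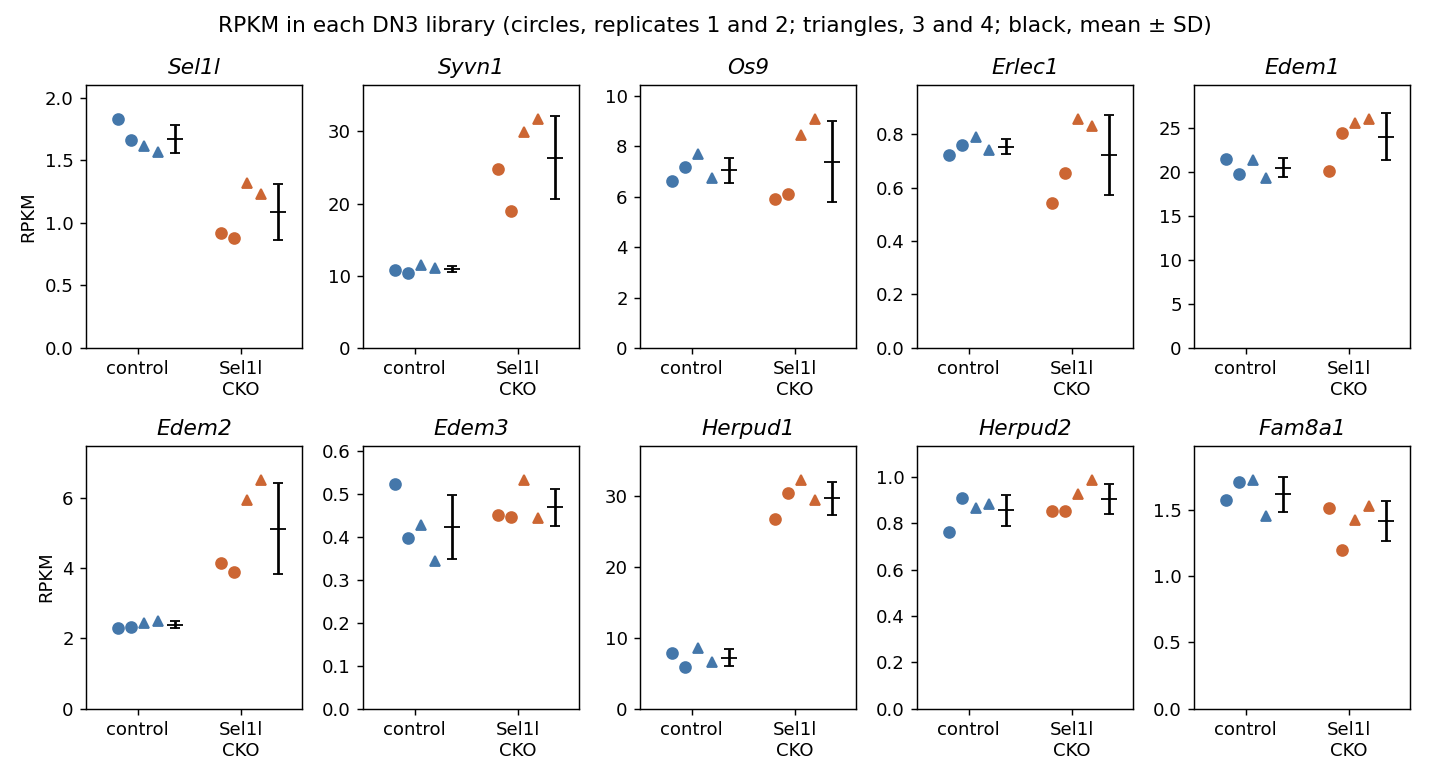
RPKM of each member (vertical axis, from 0) in the 4 control and the 4 Sel1l CKO libraries, with circles for replicates 1 and 2, triangles for replicates 3 and 4, and the mean ± SD in black. Herpud1, Syvn1 and Edem2 in Sel1l CKO lie above every control library, Sel1l lies below, and Os9 and Erlec1 in Sel1l CKO lie on both sides of the controls.

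Sel1l (ENSMUSG00000020964, chr12:91806043-91849157, minus strand, GRCm38) is the targeted gene. It stood at 1.83, 1.66, 1.61 and 1.57 RPKM across control replicates 1 to 4, against 0.917, 0.876, 1.32 and 1.23 RPKM across Sel1l CKO replicates 1 to 4. The genotypes did not overlap, and Sel1l CKO replicates 3 and 4 lay closest to the controls. The mean was 1.67 ± 0.114 RPKM for control and 1.09 ± 0.222 RPKM for Sel1l CKO (SD, n = 4 each), which is 65.1% of control, with -0.59 as the log2 fold change (standard error, SE, 0.13, limma adjusted p = 0.0327). Taken by set of libraries, replicates 1 and 2 gave a log2 fold change of -0.89 and replicates 3 and 4 gave -0.30. The call lay close to the threshold. In the 6 fits that left out a control library, Sel1l CKO replicate 1 or Sel1l CKO replicate 2, the log2 fold change stayed between -0.62 and -0.51 and the limma adjusted p rose to between 0.0646 and 0.0981, and it was 0.0199 without Sel1l CKO replicate 3 and 0.0348 without Sel1l CKO replicate 4. The call was also lost with no filter on low values (limma adjusted p = 0.0904) and with libraries rescaled to the same sum (0.0649). The value counts reads over the whole gene (between 1498 and 1903 reads per Sel1l CKO library), so a transcript that lacks only the deleted segment is counted too. The study reports that the CD2-driven iCre was efficient in depleting genes in later thymocyte stages. For this it shows quantitative PCR of Sel1l across thymocyte subsets and a western blot of SEL1L protein in sorted cells, DN3 among them. In a bulk sample, fewer cells with the transcript and less transcript per cell cannot be told apart.

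Syvn1 (ENSMUSG00000024807, chr19:6046576-6053712, plus strand), the ligase that SEL1L supports, moved the other way. It stood at 10.7, 10.4, 11.4 and 11.1 RPKM across control replicates 1 to 4, against 24.8, 18.9, 29.9 and 31.7 RPKM across Sel1l CKO replicates 1 to 4. The controls lay within a narrow range, and the lowest Sel1l CKO library, replicate 2, was still well above it. The mean rose from 10.9 ± 0.449 to 26.4 ± 5.74 RPKM (SD, n = 4 each), with 1.24 as the log2 fold change (SE 0.15, limma adjusted p = 0.000972). The 3' end of Syvn1 shares 91 bases with Mrpl49 on the opposite strand, and whether the counting used the strand is not given in the sources used here. Mrpl49, a mitochondrial ribosomal protein gene, was at 16.1 ± 0.534 RPKM in control libraries and 15.8 ± 1.36 RPKM in Sel1l CKO libraries (SD, n = 4 each; limma adjusted p = 0.823).

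Herpud1 (ENSMUSG00000031770, chr8:94386438-94395377, plus strand), whose product recruits ERAD factors to HRD1, had the highest fold change of the members. It stood at 7.76, 5.88, 8.47 and 6.59 RPKM across control replicates 1 to 4, against 26.6, 30.3, 32.2 and 29.4 RPKM across Sel1l CKO replicates 1 to 4. The genotypes lay far apart, and the spread within each was small beside the gap. The mean rose from 7.18 ± 1.16 to 29.6 ± 2.31 RPKM (SD, n = 4 each), 4.13-fold, with 2.04 as the log2 fold change (SE 0.12, limma adjusted p = 1.22e-05). The rise was nearly the same in both sets of libraries, with a log2 fold change of 2.06 within replicates 1 and 2 and 2.03 within replicates 3 and 4.

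Herpud2 (ENSMUSG00000008429, chr9:25108132-25151820, minus strand), the paralog of Herpud1, lay below the filter. It stood at 0.762, 0.912, 0.866 and 0.886 RPKM across control replicates 1 to 4, against 0.856, 0.854, 0.929 and 0.988 RPKM across Sel1l CKO replicates 1 to 4. The genotypes overlapped, and the means were 0.857 ± 0.0658 and 0.907 ± 0.0644 RPKM (SD, n = 4 each; exact permutation test, two-sided, p = 0.371). In the fit without a filter its log2 fold change was 0.07, with a 95% interval from -0.10 to 0.25 (limma adjusted p = 0.658). The log2 fold change of Herpud1 exceeded that of Herpud2 by 1.97 (SE 0.16), the largest difference among the 6 pairs of related members compared (two-sided exact permutation p = 0.0286, which is the smallest that 4 libraries against 4 allow, and 0.0429 adjusted over the 6 pairs).

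The EDEM genes differed among themselves. Edem2 (ENSMUSG00000038312, chr2:155701677-155729475, minus strand) stood at 2.28, 2.33, 2.43 and 2.50 RPKM across control replicates 1 to 4, against 4.15, 3.88, 5.94 and 6.50 RPKM across Sel1l CKO replicates 1 to 4. The Sel1l CKO libraries fell into a lower pair, replicates 1 and 2, and a higher pair, replicates 3 and 4, both above the controls. The mean rose from 2.38 ± 0.0994 to 5.12 ± 1.30 RPKM (SD, n = 4 each), with 1.04 as the log2 fold change (SE 0.16, limma adjusted p = 0.0048). EDEM2 is known for the first mannose trimming step that commits a glycoprotein to ERAD.

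Edem1 (ENSMUSG00000030104, chr6:108828641-108859356, plus strand) stood at 21.5, 19.8, 21.3 and 19.3 RPKM across control replicates 1 to 4, against 20.1, 24.4, 25.6 and 26.0 RPKM across Sel1l CKO replicates 1 to 4. Only Sel1l CKO replicate 1 lay within the control range. The log2 fold change was 0.22, with a 95% interval for the gene taken alone from 0.02 to 0.43, and it did not pass after adjustment over all genes (limma adjusted p = 0.203). Edem1 passed in the fits with array weights (limma adjusted p = 0.0168) and without Sel1l CKO replicate 1 (0.0428), among adjusted p values from 0.0168 to 0.38 over its alternatives. Edem3 (ENSMUSG00000043019, chr1:151755371-151822051, plus strand) lay below the filter, at 0.522, 0.397, 0.427 and 0.344 RPKM across control replicates 1 to 4, against 0.450, 0.447, 0.532 and 0.444 RPKM across Sel1l CKO replicates 1 to 4. The genotypes overlapped (exact permutation test, two-sided, p = 0.314), and its log2 fold change in the fit without a filter was 0.13, with a 95% interval from -0.14 to 0.40. Compared within libraries, the log2 fold change of Edem2 exceeded that of Edem1 by 0.81 (SE 0.15) and that of Edem3 by 0.91 (SE 0.21), each with an exact permutation p of 0.0286, adjusted 0.0429. Edem1 and Edem3 differed by 0.10 (SE 0.11, exact permutation p = 0.371, adjusted 0.371).

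**Figure D2:**
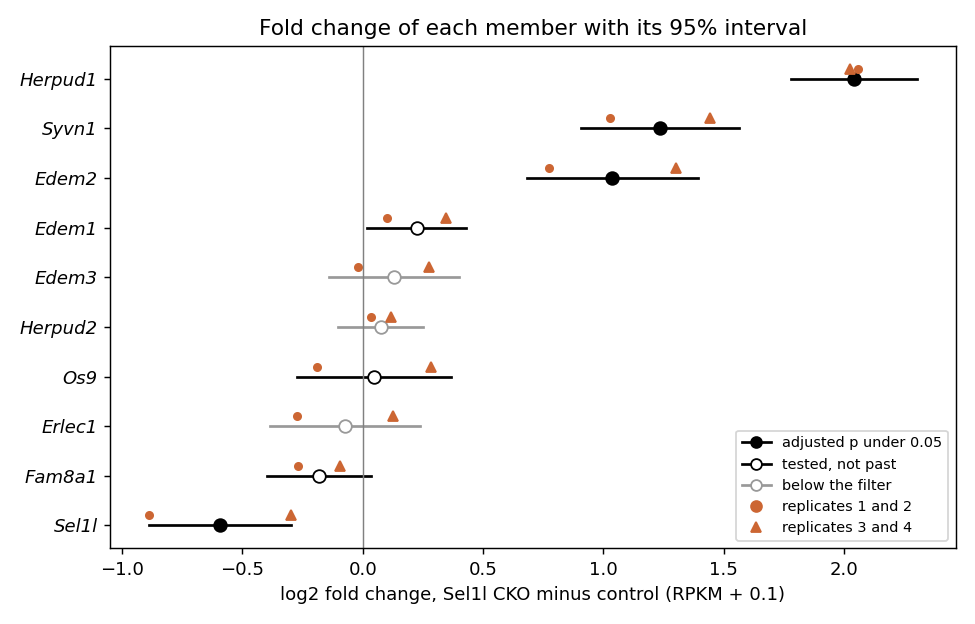
Log2 fold change of each member, Sel1l CKO minus control (horizontal axis), with its 95% interval, filled where the adjusted p is under 0.05 and grey where the member lay below the filter and the interval is from the fit without a filter. The orange symbols give the value within replicates 1 and 2 (circles) and within replicates 3 and 4 (triangles), which lie on opposite sides of 0 for Os9, Erlec1 and Edem3.

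The lectins gave opposite directions in the 2 sets of libraries, a split that was seen in the values and that no label names. Os9 (ENSMUSG00000040462, chr10:127095650-127121131, minus strand) stood at 6.61, 7.17, 7.68 and 6.73 RPKM across control replicates 1 to 4, against 5.92, 6.11, 8.46 and 9.08 RPKM across Sel1l CKO replicates 1 to 4. Sel1l CKO replicates 1 and 2 lay below every control library and replicates 3 and 4 above every one. The log2 fold change was 0.05 over all libraries, with a 95% interval from -0.27 to 0.37 (limma adjusted p = 0.881), while replicates 1 and 2 alone gave -0.19 and replicates 3 and 4 alone gave 0.28, a difference between sets that was not tested. Erlec1 (ENSMUSG00000020311, chr11:30930774-30954335, minus strand) was below the filter and had the same arrangement. It stood at 0.722, 0.760, 0.790 and 0.740 RPKM across control replicates 1 to 4, against 0.541, 0.655, 0.856 and 0.831 RPKM across Sel1l CKO replicates 1 to 4. Its log2 fold change was -0.07 over all libraries (exact permutation test, two-sided, p = 0.714; 95% interval in the fit without a filter from -0.39 to 0.24), -0.27 within replicates 1 and 2 and 0.13 within replicates 3 and 4. The difference between the fold changes of Os9 and Erlec1 was 0.12 (SE 0.06, exact permutation p = 0.114, adjusted 0.137). All of Erlec1 lies within Asb3, a gene of the opposite strand at 0.0988 ± 0.0125 RPKM for control and 0.0846 ± 0.0101 RPKM for Sel1l CKO (SD, n = 4 each).

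All 10 members had a higher mean in Sel1l CKO replicates 3 and 4 than in Sel1l CKO replicates 1 and 2, and for 7 of them (Sel1l, Syvn1, Os9, Erlec1, Edem1, Edem2 and Herpud2) both of replicates 3 and 4 lay above both of replicates 1 and 2. Among the control libraries the same held for 2 members (Syvn1 and Edem2), and the opposite for Sel1l. These counts were made for the 10 members only, and the share of all genes that split alike was not counted. The split can therefore not be read as particular to the members. With replicates 3 and 4 against 1 and 2 as a term in the fit, 343 of the 6512 tested genes were called higher and 182 lower. Without that term, 278 were called higher and 66 lower. The means of these 2 sets of Sel1l CKO libraries were 0.897 and 1.27 RPKM for Sel1l, and 6.02 and 8.77 RPKM for Os9, in that order. They were 4.01 and 6.22 RPKM for Edem2 and 21.9 and 30.8 RPKM for Syvn1. Herpud1 stood at 28.5 and 30.8 RPKM. No label names a batch, the split was seen in the values, and each set holds 2 libraries of each genotype.

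Fam8a1 (ENSMUSG00000069237, chr13:46669522-46678056, plus strand), the HRD1 partner, stood at 1.57, 1.71, 1.72 and 1.45 RPKM across control replicates 1 to 4, against 1.51, 1.20, 1.42 and 1.53 RPKM across Sel1l CKO replicates 1 to 4. The genotypes overlapped, with Sel1l CKO replicate 2 the lowest library. On the log2 scale the difference was -0.18, with a 95% interval from -0.40 to 0.04 (limma adjusted p = 0.323). It rests on the fewest reads of the members, between 399 and 698 per library.

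To compare levels between genes, reads were set on the length of the exons, because the RPKM of the table is on gene length with introns included. If reads in introns were counted as well, this scale would raise genes with long introns, which was not tested. For Os9, the length behind the values (26902 bases) was longer than its GENCODE M21 span (25482 bases). If the added bases are exonic, which was not tested, the Os9 level and its ratio to Erlec1 are too high on this scale. On this scale, the mean level in control was 97.5 RPKM on exon length for Edem1, 72.1 for Os9, 27.5 for Herpud1, 19.1 for Edem2, 16.1 for Syvn1 and 8.41 for Sel1l. Herpud2 (6.38), Erlec1 (5.44), Edem3 (4.41) and Fam8a1 (3.60) followed. Each neighbour down to Herpud2 was apart from the next in all 4 control libraries, whereas Herpud2 and Erlec1, Erlec1 and Edem3, and Edem3 and Fam8a1 overlapped. In Sel1l CKO, Herpud1 (114 ± 8.84, SD, n = 4) overlapped Edem1 (114 ± 12.9), and Edem2 (41.1 ± 10.4) overlapped Syvn1 (38.7 ± 8.43). Sel1l (5.47 ± 1.12) had moved into the range of Herpud2 (6.76 ± 0.48) and Erlec1 (5.21 ± 1.08). The 10 levels summed to between 249 and 277 in control and between 351 and 456 in Sel1l CKO. Of this sum, Herpud1 made up 10.5% ± 1.26 in control and 28.0% ± 2.61 in Sel1l CKO (SD, n = 4 each), and Edem1 made up 37.4% ± 1.06 and 28.1% ± 1.88.

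**Figure D3:**
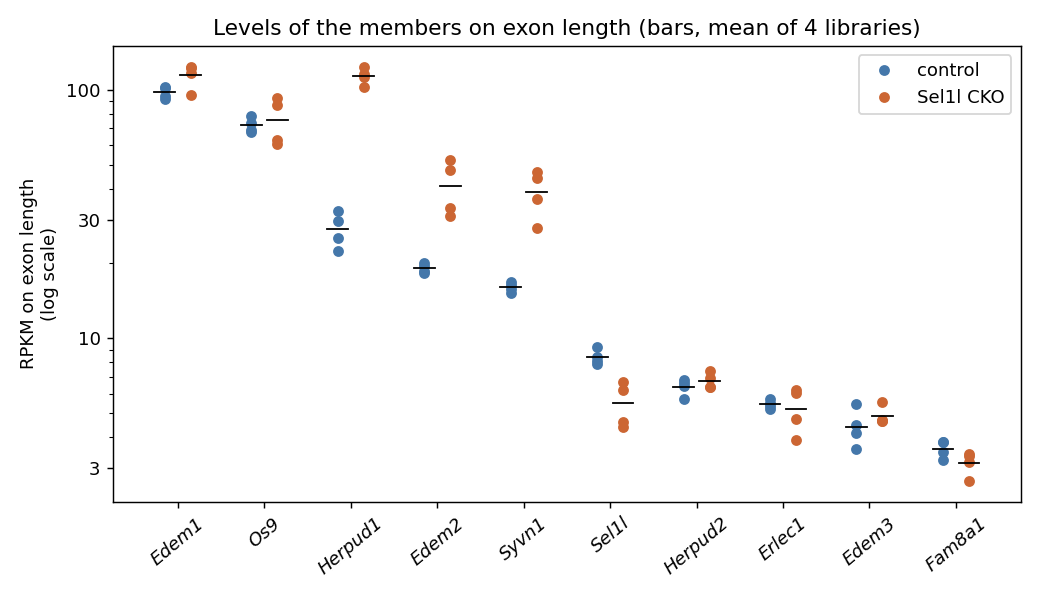
Level of each member on exon length (vertical axis, log scale, RPKM on exon length), ordered by the control mean, with 1 point per library and a bar at the mean of 4. In Sel1l CKO, Herpud1 at 114 reaches the level of Edem1, and Sel1l at 5.47 lies within the range of the low members.

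The ratio of Syvn1 to Sel1l on exon length was 1.71, 1.82, 2.07 and 2.07 in control replicates 1 to 4, and 7.89, 6.30, 6.62 and 7.51 in Sel1l CKO replicates 1 to 4. The Sel1l CKO values lay close together in this ratio, with no gap between replicates 1 and 2 and replicates 3 and 4. On the log2 scale, the fold change of Sel1l was below that of Syvn1 by 1.83 (SE 0.10, exact permutation p = 0.0286, adjusted over the 6 pairs 0.0429). All Sel1l CKO libraries lay below control for Sel1l and above control for Syvn1, so this p could only be the smallest possible. It adds nothing to the results of each gene alone. The ratio of Herpud1 to Herpud2 rose from 4.35 ± 0.93 to 16.8 ± 1.41 and that of Edem2 to Edem3 from 4.45 ± 0.913 to 8.40 ± 2.08 (SD, n = 4 each), and both are tested above as differences of fold change. The ratio of Os9 to Erlec1 was 13.2 ± 0.41 in control and 14.5 ± 1.13 in Sel1l CKO, and the genotypes overlapped.

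**Figure D4:**
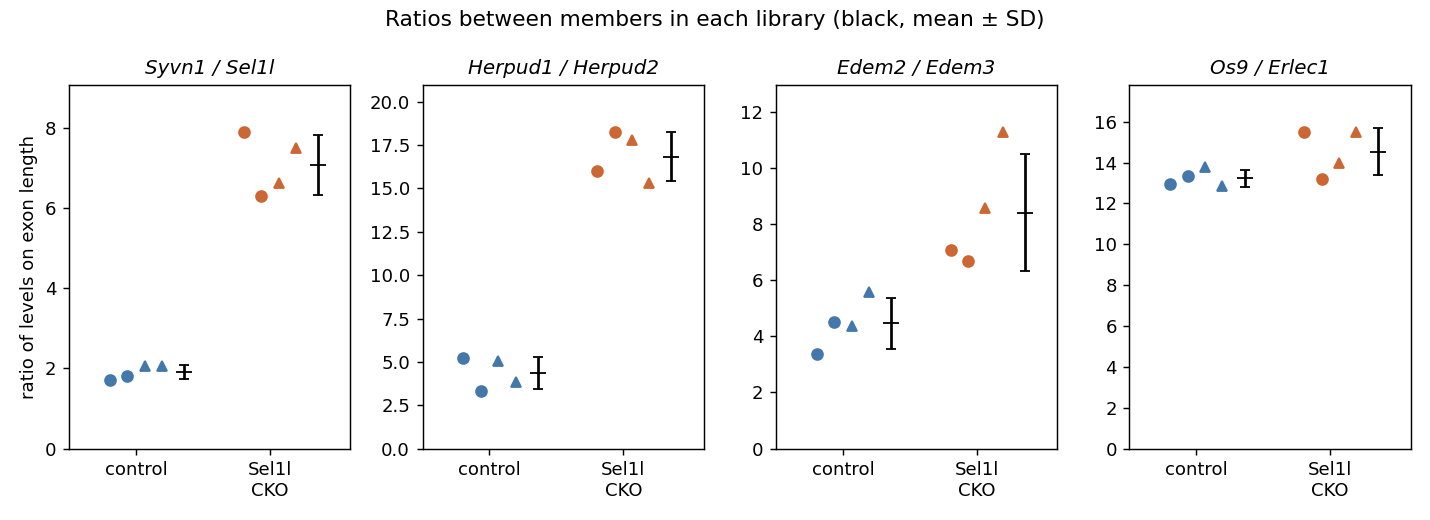
Ratios of levels on exon length (vertical axis, from 0) between related members in each library, with circles for replicates 1 and 2, triangles for replicates 3 and 4, and the mean ± SD in black. Syvn1 to Sel1l was between 1.71 and 2.07 in control and between 6.30 and 7.89 in Sel1l CKO, while Os9 to Erlec1 overlapped between genotypes.

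Other ERAD genes came from a list of 42 (derlins, the p97 machinery, other ERAD ligases, glucosyltransferases, ER chaperones and cytosolic helpers), of which 41 were in the table and 33 were tested. Of the 33, 11 rose, 0 fell and 22 did not pass (limma, adjusted p under 0.05), beside 4.27% of all tested genes that rose and 1.01% that fell. The median log2 fold change of the 33 was 0.14, beside 0.01 over all tested genes. Derl3, a derlin, rose most, from 0.0919 ± 0.0831 to 7.84 ± 3.18 RPKM (SD, n = 4 each; log2 fold change 5.38, limma adjusted p = 3.42e-05). Sdf2l1, an ER chaperone cofactor, rose from 20.6 to 118 RPKM, and Hspa5, which encodes BiP, from 107 to 376 RPKM. Selenos, which encodes a selenoprotein of the ER membrane that links ERAD to p97, rose from 3.32 to 8.51 RPKM, Txndc11, a thioredoxin-domain partner of EDEM proteins, from 0.784 to 2.06 RPKM, and Selenok, a selenoprotein of the ER membrane, from 7.03 to 12.4 RPKM. Of the 33 genes, 3 had a control mean under 1 RPKM and entered the test through Sel1l CKO, Derl3 and Txndc11 among them.

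**Figure D5:**
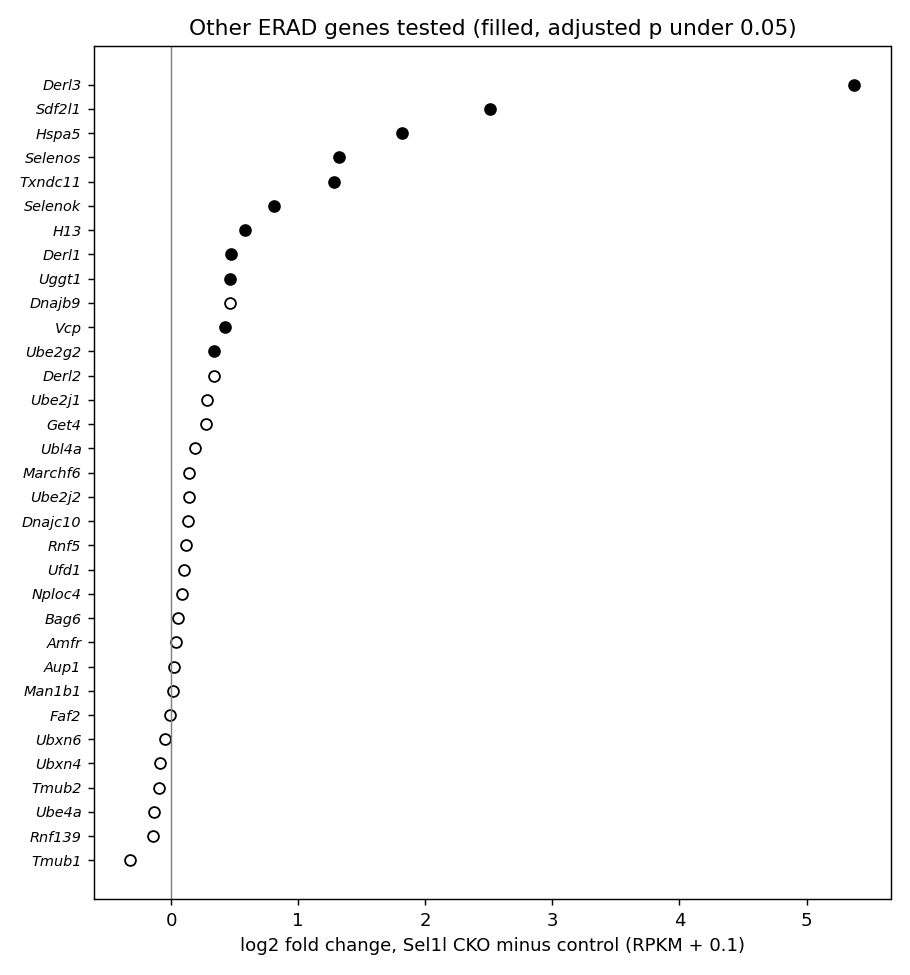
Log2 fold change, Sel1l CKO minus control (horizontal axis), of the 33 tested genes of the other ERAD list, filled where the adjusted p is under 0.05. The 11 filled genes all lie above 0, with Derl3 at 5.38 and Sdf2l1 at 2.51.

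Over all promoters, 49 genes held either ER stress response element, and 18 of them were tested. Of these 18, 14 rose (77.8%, beside 4.27% of all tested genes) and 0 fell, Syvn1 and Herpud1 among the 14. Of the 18, 17 had a control mean of at least 1 RPKM. The other genes that rose were Alg12, Calr, Canx, Creld2, Derl3, Dnajb11, Dnajc3, Hsp90b1, Hspa5, Krtcap2, Nucb1 and Pdia6, most of them ER chaperones or folding enzymes. This count was made after the values of the members were seen and has no test.

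The genes with a pattern most like that of 2 members were found by Pearson's r of log2(RPKM + 0.1) over the 8 libraries, where the genotype difference is part of every r. For Sel1l they were Usf3 (r = 0.99), Tmem131 (0.98), Slmap (0.98), Ctsw (0.97) and Yod1 (0.97). For Syvn1 they were Ppib (r = 0.99), Gm17541 (0.99), Ssr2 (0.99), Gmppa (0.99) and Cope (0.99). Ppib, an ER cyclophilin, went from 26.3 to 48.3 RPKM (limma adjusted p = 0.000187).

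The reads counted on genes were between 35200000 and 47800000 in the control libraries and between 32900000 and 50400000 in the Sel1l CKO libraries, to 3 digits. The 9 DN3 markers (Il2ra, Ptcra, Rag1, Rag2, Cd3e, Cd3g, Notch1, Dtx1 and Hes1) were present and summed to between 314 and 397 RPKM in control and between 247 and 288 RPKM in Sel1l CKO, and 0 of the 9 passed the test. Il2ra alone had a higher mean in Sel1l CKO (17.5 RPKM in control, 19.6 in Sel1l CKO). The means of the others were lower, with the largest fall for Hes1, from 50.6 to 22.6 RPKM. Markers of later thymocytes (5 genes) summed to at most 3.80 RPKM in any control library and 4.61 RPKM in any Sel1l CKO library. The 6 markers of B cells and plasma cells, of which plasma cells are rich in ERAD components, summed to at most 0.339 RPKM in any control library and 0.152 RPKM in any Sel1l CKO library. The 5 myeloid and dendritic cell markers summed to between 2.15 and 2.48 RPKM in control and between 0.667 and 1.56 RPKM in Sel1l CKO, most of it Lyz2 (means of 2.26 and 1.25 RPKM), with Csf1r, Itgam, Itgax and Adgre1 near 0. The 5 thymic epithelium markers summed to between 3.10 and 4.88 RPKM in control and between 1.95 and 2.27 RPKM in Sel1l CKO, most of it Epcam, with Foxn1, Krt5, Krt8 and Psmb11 near 0, and Epcam was the 1 marker of any list that passed the test. The 3 early progenitor markers summed to at most 0.394 RPKM, the 1 natural killer cell marker in the table to at most 0.0198 RPKM and the 2 erythroid markers to at most 1.59 RPKM in any library, and no marker was at 0 in all libraries. Their part in the values of the members was not tested.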

How the data were processed

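Samples were grouped by the genotype in their labels. Per the labels and the study's methods, the authors sorted live, lineage-negative DN3 cells after bead depletion of CD4+ and CD8+ cells, made stranded mRNA libraries for paired-end sequencing, aligned them with STAR 2.5.2b to GRCm38, counted reads on protein-coding genes with HTSeq and used DESeq2 for their own comparison. The authors deposited RPKM values, 1 column per library, and all 8 columns were used. The strand setting of the counting and the gene length behind RPKM are not given in the sources used here.

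The length was read from the values. On spans from GENCODE M21, introns included, values were whole multiples of 1 read (within 0.01) in every library for 75.0% of the genes with a span and a value, against 2.7% with exon length. A length was solved from the values for 3894 further genes, Os9 and Herpud2 among them, so reads were recovered for 97.6% of genes with a value. RPKM on exon length was computed from those reads and GENCODE M21 exons. Recovered depth is 32900000 to 50400000 reads per library, and counts of 399 or more reads stand behind every member value.

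RPKM values were tested with limma 3.58.1 in R 4.3.3 (moderated test with a mean-variance trend, two-sided, genotype as the only term) after adding a pseudocount of 0.1, which understates the change of low genes, on genes with a mean of at least 1 RPKM, and an adjusted p under 0.05 was called. Intervals are 95% and for a gene taken alone. Pairs of members were compared by the difference of their log2 values in each library, and members below the filter by mean RPKM, both over the 70 assignments of 8 libraries. The procedure was tested on simulated reads with the same spread in both genotypes and no split between replicates. That simulation does not cover the wider spread of several members in Sel1l CKO. Python 3.11.15, numpy 2.4.6, pandas 2.3.3 and matplotlib 3.10.9 were used for the rest.

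The text names the 10 members, at most 6 other ERAD genes past the threshold with the largest change, and the 5 genes most like Sel1l and the 5 most like Syvn1; genes named for an overlap, a promoter element or as markers were added. The members and lists were chosen with earlier results of these data known. Alternatives were 13 other fits and 8 that each left out 1 library. Gene identifiers and coordinates are those of GENCODE M21 (GRCm38), 1-based. No protein sequences were used here.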

Additional observations from a re-analysis of the deposited data

Results flagged for a closer look

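Edem3 in Sel1l CKO replicate 3 stood at 0.532 RPKM, away from the other Sel1l CKO libraries, which lay between 0.444 and 0.450 RPKM. The gap to the nearest library was 0.928 of the range of the 4 libraries, above Dixon's 95% critical value for 4 samples. Of the 20 groups of 4 values looked at (10 members in each genotype), chance gives about 1 such value.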

How the results depend on the processing

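Syvn1 and Herpud1 passed the threshold in all 21 alternatives and Edem2 in all 20 that tested it, with log2 fold changes from 1.14 to 1.42, from 1.91 to 2.13 and from 0.83 to 1.25. The number of members that fell went from 1 to 0 with no filter (Sel1l limma adjusted p = 0.0904), with a mean RPKM of at least 5 (Sel1l not tested), with libraries rescaled to the same sum (0.0649) and with a replicate block (0.0601), and ranged from 0 to 1 when 1 library was left out. Sel1l passed in 11 of 20 alternatives, with log2 fold changes from -0.69 to -0.36. The cause was not tested. The replicate block left 3 members called higher and gave 236 higher and 81 lower genes in all. The replicate numbers were not taken to pair libraries, since the correlations of same-numbered deviations were 0.16, 0.097, 0.45 and 0.0051, and only number 3 matched itself best. Os9 had log2 fold changes between -0.061 and 0.14 in the fits that left out 1 library, and was at -0.061 without Sel1l CKO replicate 4 and -0.027 without Sel1l CKO replicate 3. The number of all genes called was 278 higher and 66 lower. It was 182 and 36 with a mean RPKM of at least 5, and 458 and 182 with array weights. Lower genes numbered 182 with replicates 3 and 4 against 1 and 2 as a term (343 higher) and 162 with limma voom on recovered reads (341 higher). They numbered 121 on exon length (337 higher) and between 31 and 75 when 1 library was left out. Members with no overlap numbered 4 under both other scalings and 4 or 5 without 1 library. All 6 pair differences kept direction and side of the threshold with pseudocounts of 1 and 0.01.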
